A study of Mus musculus with 4 samples.

Results

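The subject is a group of 9 transcription factor genes of endothelial cells, Sox7, Sox17, Sox18, Erg, Fli1, Ets1, Ets2, Tal1 and Nfatc1, read in single cells of the embryonic mouse heart. They were taken by symbol from the 32285 genes of each count matrix, and all 9 were found there once. Hearts of C57BL/6J embryos were collected at the embryonic stage E10.5 and dissociated, red blood cells were lysed, and 3′ transcript ends were counted by unique molecular identifiers (UMIs) on the 10x Genomics platform. There were 2 wild-type libraries (Wt1 and Wt2) and 2 libraries from embryos homozygous for Cyp51 I383V (Ho1 and Ho2), a missense change in an enzyme of cholesterol synthesis that was knocked in with CRISPR/Cas9. The labels give CRISPR/Cas9 as the treatment of all 4 libraries, wild type included. They do not say how many embryos went into a library, so that p-values measure the spread between libraries, and with 2 against 2 an exact permutation test cannot go below p = 0.333. The question was in which cells of the heart these factors were transcribed, how they differed between kinds of endothelium, and whether homozygotes differed from wild types.

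SoxF factors (Sox7, Sox17 and Sox18) bind DNA through an HMG box and take part in the arterial, venous and lymphatic fates of endothelial cells and in the formation of vessels. Erg, Fli1, Ets1 and Ets2 belong to the Ets family, whose shared DNA-binding domain reads a GGA core found in many endothelial enhancers. Tal1 is a basic helix-loop-helix factor required for blood formation and for the early endocardium, the endothelium that lines the heart. Nfatc1 is a calcineurin-dependent factor of the endocardium and is required for heart valves.

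Cells were sorted by their own transcripts, not by published cell types, which were not used here. A cell with at least 2 UMIs of Cdh5 and Pecam1 together was counted as endothelium, and one with at least 2 UMIs of C1qa as a macrophage. Of 29168 cells, 6503 (22.3%) were endothelial, 36 were macrophages, 4 met both rules and were left out, and 22625 remained. The endothelium was split into cells with UMIs of Npr3 alone (2067 cells), Wnt4 alone (733) or Aplnr alone (89), leaving 1288 cells with none of these 3 genes and 2326 with several. Npr3 encodes a natriuretic peptide clearance receptor, Wnt4 a secreted Wnt ligand, and Aplnr the apelin receptor.

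Transcripts that the gates did not use were compared with these names. The Wnt4 gate held 637 to 814 UMIs per 1000000 (CPM) of Hapln1, 100.3 to 142 of Msx1 and 41.0 to 56.2 of Sox9, genes of the endocardial cushion, against 387 to 467, 45.6 to 71.7 and 11.6 to 19.4 CPM in the Npr3 gate. Bmp4, listed as a cushion marker, overlapped between the Wnt4 gate (8.72 to 12.7 CPM) and the Npr3 gate (5.95 to 12.2 CPM). In the Aplnr gate it ranged from 0 to 48.9 CPM. The Npr3 gate had more Cgnl1 (165 to 186 CPM), a marker of chamber endocardium, than the Wnt4 gate (110.4 to 136 CPM). Bmp10, listed as a chamber marker, was scarce, at 0 to 1.78 CPM in the Npr3 gate and 0 to 1.39 in the Wnt4 gate. Cldn5, a tight junction gene of vessels, stood at 79.1 to 309 CPM in the Aplnr gate, 8.61 to 32.1 in the Npr3 gate and 2.05 to 4.88 in the Wnt4 gate. Fabp5, listed as a vascular marker, went against that list, being most abundant in the Wnt4 gate (2814 to 3788 CPM). Dll4, from the same list, overlapped between the Aplnr gate (10.8 to 24.4 CPM) and the Npr3 gate (15.6 to 21.0 CPM). Col3a1, a collagen gene, was lower in the Wnt4 gate (275 to 342 CPM) than in the Npr3 gate (300 to 355 CPM) in every library. Col1a1, another collagen gene, went the other way. It was higher in the Wnt4 gate (8.46 to 21.3 CPM) than in the Npr3 gate (1.26 to 5.38 CPM) in every library. Postn overlapped between these gates (22.8 to 31.2 against 19.6 to 27.4 CPM). Plvap, an endothelial gene, was lower in the Aplnr gate (190 to 311 CPM) than in the Npr3 gate (214 to 319 CPM) in every library. The gates are therefore called by their genes.

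Library Ho1 stood apart from the others. It held 28864 UMIs of Xist, the RNA of the inactive X chromosome, where Wt1, Wt2 and Ho2 held 5, 4 and 2, so that Ho1 held female cells and the other libraries next to none. None of its 6980 cells met the epithelial rule, which allows a share of up to 0.0528% (exact 95% limit), while the other libraries had 167 to 425 such cells. Transcripts of 6 cardiomyocyte markers summed to 2487 CPM in its endothelium against 588, 672 and 576 in Wt1, Wt2 and Ho2, with Myl7 the most abundant at 1120 CPM. Erythroid markers summed to 562 CPM there, with Hbb-y most abundant at 236 CPM, against 77.3 to 110.3 in the other libraries. Only 4 cells of Ho1 fell in the Aplnr gate, against 44, 20 and 21. Between 14 and 34 cell barcodes were shared by any pair of libraries. Depth differed too, with 97179971, 105266201, 113449768 and 98314613 UMIs in the cells used of Wt1, Wt2, Ho1 and Ho2, and a median of 10561 UMIs per cell in Wt1 against 14215, 15654 and 15826.5 in the others.

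In the GRCm38 assembly, Sox7 lies at chr14:63943673-63950732, Sox17 at chr1:4490931-4497354 and Sox18 at chr2:181669836-181671640. The Ets genes form 2 neighbouring pairs. Erg (chr16:95359169-95586593, minus strand) and Ets2 (chr16:95702075-95721051, plus strand) are separated by 115481 bases, and Fli1 (chr9:32422204-32542861, minus strand) and Ets1 (chr9:32636221-32757820, plus strand) by 93359 bases. Members of a pair thus point away from each other. Tal1 lies at chr4:115056426-115071755. RefSeq promoter windows, from 250 bases before to 50 bases after a start site, were on hand for Erg (3 start sites), Ets2 (1) and Tal1 (2). They were searched on both strands. The letters of the Ets core were CCGGAA, and those of the Sox motif were AACAAT. The motif of Gata factors was searched as AGATAA, and the E-box, the kind of site bound by Tal1 dimers, as CAGCTG. The 2 windows with any match are printed in lower case on the strand of the gene, GRCm38.p6, with the matches in capitals, as the regulatory letters on hand for members of the group.
Tal1, chr4:115056176-115056475, plus strand: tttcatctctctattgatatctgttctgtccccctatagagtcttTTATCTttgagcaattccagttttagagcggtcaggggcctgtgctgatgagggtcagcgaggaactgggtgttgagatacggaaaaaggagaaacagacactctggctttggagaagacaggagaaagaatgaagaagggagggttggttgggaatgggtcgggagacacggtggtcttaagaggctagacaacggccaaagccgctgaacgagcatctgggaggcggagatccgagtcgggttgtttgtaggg
Erg, chr16:95459299-95459598, minus strand: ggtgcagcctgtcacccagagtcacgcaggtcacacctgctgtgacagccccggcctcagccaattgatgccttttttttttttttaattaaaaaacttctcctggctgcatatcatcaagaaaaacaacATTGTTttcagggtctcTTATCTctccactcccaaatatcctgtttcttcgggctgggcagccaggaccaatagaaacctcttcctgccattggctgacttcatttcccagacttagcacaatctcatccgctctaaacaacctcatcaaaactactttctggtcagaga

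The Tal1 window holds the Gata letters once, as their reverse complement TTATCT. The window of an internal Erg start site holds both the Sox letters, as ATTGTT, and the Gata letters, at separate places. These letters are common: of 32851 mouse promoter windows of the same length, 10.7% hold AACAAT, 11.2% AGATAA, 14.9% CCGGAA and 16.3% CAGCTG. The matches are a description of letters and not of binding.

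All 9 factors were higher in endothelium than in the remaining cells, in 4 of 4 libraries each (edgeR quasi-likelihood test with Benjamini-Hochberg adjustment, adjusted p from 8.9e-11 to 1.9e-07). Of 14462 genes tested in this comparison, 27.0% were called higher. SoxF genes and Erg were 4.71 to 5.07 higher on the log2 scale, Nfatc1 3.54 and Tal1 3.15, and Ets2, Fli1 and Ets1 2.63, 2.24 and 2.19. Their sizes depended on the gate, and when cells were gated after thinning to 2000 UMIs, which left 3.71% to 6.26% of cells in the endothelium, the 9 differences fell to between 1.39 and 2.74 but were all still called.

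Sox7, a SoxF gene linked to early vessel formation, was counted at 21.5, 22.9, 24.2 and 27.3 CPM in the endothelium of Wt1, Wt2, Ho1 and Ho2. The homozygous libraries were the higher pair, without overlap, but the difference was not called (edgeR adjusted p = 0.84). In the remaining cells it stood at 0.65, 0.85, 0.94 and 0.39 CPM, and no UMI was found in 379 epicardial-gate cells. It stood at 24.6, 25.0, 25.5 and 31.3 CPM in the Npr3 gate and at 15.0, 20.8, 22.3 and 18.1 CPM in the Wnt4 gate. Each library had more Sox7 in its Npr3 than in its Wnt4 gate, by 0.44 ± 0.13 (log2, SE; edgeR adjusted p = 0.0086). Without Ho2 the difference was 0.35 (adjusted p = 0.051). In the Aplnr gate the 42 UMIs ranged from 15.8 to 38.7 CPM and overlapped both other gates, with differences of 0.09 ± 0.24 from Npr3 (adjusted p = 0.88) and 0.53 ± 0.26 from Wnt4 (adjusted p = 0.18; 0.21 without Ho2).

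Sox17, the SoxF gene best known for arterial endothelium, had a mean of 39.2 ± 11.0 CPM (SD, n = 4) in the endothelium, the widest spread of the 9 relative to its mean. In the endothelium it was counted at 42.0 and 37.6 CPM in Wt1 and Wt2, and at 25.4 and 51.8 in Ho1 and Ho2. The homozygous libraries were thus the lowest and the highest of the 4. The spread was wider still in the Npr3 gate, at 49.1, 36.7, 18.7 and 59.7 CPM, and narrower in the Wnt4 gate, at 48.4, 59.0, 54.4 and 62.5 CPM. Ho1 was low among Npr3 cells but within the range of the others among Wnt4 cells. In the Aplnr gate Wt1, Wt2 and Ho2 had 83.7, 110.9 and 85.6 CPM, and Ho1, with 4 cells, had 1 UMI. Endothelial cells with none of the 3 gate genes also carried Sox17, at 44.8, 58.1, 25.4 and 72.7 CPM, again with Ho1 lowest and Ho2 highest.

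Between gates, Sox17 was higher with Wnt4 than with Npr3 by 0.59 ± 0.15 (log2, SE; edgeR adjusted p = 0.003), in 3 of 4 libraries. Without Ho1 the difference was 0.26 (adjusted p = 0.15), and DESeq2 did not call it (adjusted p = 0.11). It was higher with Aplnr than with Npr3 by 1.09 ± 0.25 (adjusted p = 0.0036), in 3 of 4 libraries, and by 1.00 without Ho1, when the call held. Aplnr against Wnt4 gave 0.50 ± 0.25 (adjusted p = 0.19) with all libraries, 0.74 (adjusted p = 0.011) without Ho1 and 0.31 without Wt2. The order of the mean levels was thus Aplnr, Wnt4 and Npr3 (74.0, 56.1 and 41.1 CPM). Leaving out Ho1 kept that order of the differences but moved both calls, since the step from Npr3 to Wnt4 was then no longer called and the step from Wnt4 to Aplnr was. That second step was also called with no filter on low counts and with cells placed by their largest gate gene.

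Sox18, a SoxF gene of lymphatic and vascular development, had 42.8, 44.4, 32.7 and 53.4 CPM in the endothelium, with the same order of the homozygous libraries as Sox17. In the Npr3 gate it stood at 40.2, 41.0, 28.5 and 61.2 CPM, in the Wnt4 gate at 36.8, 55.2, 42.3 and 63.0, and in the Aplnr gate at 63.9, 97.4, 47.5 and 69.3. All 4 libraries were highest in the Aplnr gate, where the Ho1 value came from only 4 cells. The Aplnr gate exceeded the Npr3 gate by 0.78 ± 0.18 (log2, SE; edgeR adjusted p = 0.0035) and the Wnt4 gate by 0.53 ± 0.19 (adjusted p = 0.046). Leaving out Wt2 ended the first call (0.58, adjusted p = 0.063), and either wild-type library left out ended the second. The second was called in 6 of 15 alternative settings, and was also lost with DESeq2, RLE scaling, an endothelial gate of 4 UMIs, gates on thinned cells, cells placed by their largest gate gene, doublets kept and sums of at least 5 cells. Wnt4 and Npr3 gates did not pass the test of their difference, at 0.26 ± 0.10 (adjusted p = 0.065; 0.14 without Ho1), though 5 of 15 alternative settings called it.

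Erg, an Ets factor that holds endothelial identity and junctions, was counted in the endothelium at 24.4, 22.6, 21.9 and 21.6 CPM. Its levels climbed from the Npr3 gate (21.3, 19.9, 20.7 and 22.8 CPM) through the Wnt4 gate (28.1, 31.2, 33.6 and 25.9) to the Aplnr gate (35.0, 37.9, 47.5 and 44.8), and the 3 gates did not overlap. The Ho1 value in the Aplnr gate came from only 4 cells. Against Npr3 the Wnt4 gate was higher by 0.51 ± 0.11 (log2, SE; edgeR adjusted p = 0.00067) and the Aplnr gate by 0.98 ± 0.21 (adjusted p = 0.0015), each in 4 of 4 libraries. The step from Wnt4 to Aplnr, 0.46 ± 0.21, did not pass (adjusted p = 0.13). Both called differences held without any 1 library.

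Fli1, an Ets factor of endothelium and of blood cells including megakaryocytes, had 32.8, 33.2, 26.9 and 30.8 CPM in the endothelium. It was not restricted to these cells. The mesenchyme gate (Pdgfra, Prrx1 and Twist1) held 21.2, 18.3, 15.8 and 12.7 CPM, the 45 megakaryocyte-gate cells 56.4, 59.0, 89.7 and 77.0, and the 36 macrophages 20.7, 39.9, 20.5 and 34.1. In mesenchyme both homozygous libraries lay below both wild types, but the difference was not called. In endothelium the Aplnr gate (45.7, 48.7, 31.7 and 53.0 CPM) was above the Wnt4 gate (23.7, 27.8, 22.8 and 26.4 CPM) by 0.94 ± 0.19 (log2, SE; edgeR adjusted p = 0.00065). The Npr3 gate lay between them (35.7, 34.7, 27.3 and 32.9 CPM). It exceeded the Wnt4 gate by 0.37 ± 0.10 in 4 of 4 libraries (adjusted p = 0.0077, and 0.053 without Wt1 and 0.079 with an endothelial gate of 4 UMIs). The Aplnr gate exceeded the Npr3 gate by 0.57 ± 0.18 (adjusted p = 0.031), a call made in 7 of 15 alternative settings and lost without Wt1, Wt2 or Ho2, with DESeq2, with no filter on low counts, with a gate of 4 UMIs, with gates on thinned cells and with doublets kept. Pf4, a platelet gene, reached 326 CPM in the Wnt4 gate of Wt2, where megakaryocyte markers summed to 340 CPM against 7.32 to 12.3 in the other libraries. Without Wt2, Fli1 differed between Wnt4 and Npr3 by 0.37. The part of megakaryocyte transcripts in the Fli1 levels was not tested.

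Ets1, an Ets factor of vessels and of neural crest, had 105, 112, 108 and 108 CPM in the endothelium, with no separation of the genotypes. Mesenchyme held 38.6, 60.5, 84.1 and 62.1 CPM, and the 28 neural crest glia-gate cells of Wt1 held 113 CPM. Npr3 (97.9, 114, 110.4 and 98.6 CPM) and Wnt4 gates (97.4, 92.6, 93.3 and 119 CPM) overlapped, with a difference of -0.10 ± 0.08 (log2, SE; edgeR adjusted p = 0.39). This difference was -0.22 without Ho2 and -0.022 without Wt2. The Aplnr gate, at 163, 116, 142 and 163 CPM, was higher than the Npr3 gate by 0.57 ± 0.13 (adjusted p = 0.0039) and than the Wnt4 gate by 0.67 ± 0.14 (adjusted p = 0.0008). The first call was lost without Wt1 (0.42, adjusted p = 0.15).

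Ets2, a widely expressed Ets factor, had 41.4, 45.2, 47.0 and 51.6 CPM in the endothelium and 8.59, 6.99, 7.35 and 8.96 CPM in the cardiomyocyte gate. The homozygous libraries were again the higher pair in endothelium, but the difference was not called (edgeR adjusted p = 0.84). The Wnt4 gate (28.6, 38.9, 34.6 and 37.6 CPM) was lower than the Npr3 gate (39.8, 45.5, 50.8 and 54.1 CPM) in every library, by 0.45 ± 0.09 (log2, SE; edgeR adjusted p = 0.0004). The Aplnr gate (53.3, 48.7, 31.7 and 67.2 CPM) was above the Wnt4 gate by 0.77 ± 0.18 (adjusted p = 0.0027, and 0.067 without Wt1), in 3 of 4 libraries. Its difference from the Npr3 gate was 0.32 ± 0.17 (adjusted p = 0.25; 0.21 without Wt1).

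Tal1 had 21.0, 22.2, 20.5 and 23.1 CPM in the endothelium, and outside it was found where blood lineages were gated. The erythroid gate, 33 cells in all, held 33.4, 64.3, 50.0 and 30.2 CPM and the megakaryocyte gate 0, 36.9, 58.4 and 38.5. Npr3 (23.0, 23.8, 20.8 and 22.1 CPM) and Wnt4 gates (22.3, 24.6, 22.6 and 21.0 CPM) overlapped throughout, with a difference of 0.02 ± 0.12 (log2, SE; edgeR adjusted p = 0.94). In the Aplnr gate only 17 UMIs were counted, at 6.09, 10.8, 0 and 18.3 CPM, below both other gates in each library. Tal1 was lower there than in the Npr3 gate by 1.00 ± 0.32 (adjusted p = 0.040) and than in the Wnt4 gate by 1.02 ± 0.33 (adjusted p = 0.030). These calls rest on few molecules, and they were made in 7 and 8 of 15 alternative settings. Both were lost without Wt1 (-0.64 and -0.67), without Wt2, without Ho1, with DESeq2, with doublets kept, with cells placed by their largest gate gene and with gates on thinned cells, and the first also with sums of at least 5 cells. Without Ho2, whose Aplnr level was the highest, they were -1.59 and -1.62.

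Nfatc1 showed the largest difference between endothelial gates among the 9. The Wnt4 gate held 88.6, 86.4, 95.4 and 117 CPM, the Npr3 gate 42.3, 43.0, 49.9 and 50.6, and the Aplnr gate 24.4, 32.5, 63.3 and 30.6. Every library was highest in the Wnt4 gate, and the lowest Wnt4 value lay above the highest of the other gates. The 63.3 CPM of Ho1 in the Aplnr gate came from 4 UMIs. Wnt4 exceeded Npr3 by 1.03 ± 0.07 (log2, SE; edgeR adjusted p = 3.9e-12), and Aplnr fell below Wnt4 by 1.60 ± 0.18 (adjusted p = 1.1e-07). Both calls held in each of 15 alternative settings, with differences of 0.90 to 1.18 and of -3.85 to -1.49. Aplnr against Npr3 gave -0.57 ± 0.20 (adjusted p = 0.058). That difference was called in 3 of 15 alternative settings and ranged over them from -2.80 to -0.48.

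**Figure D1:**
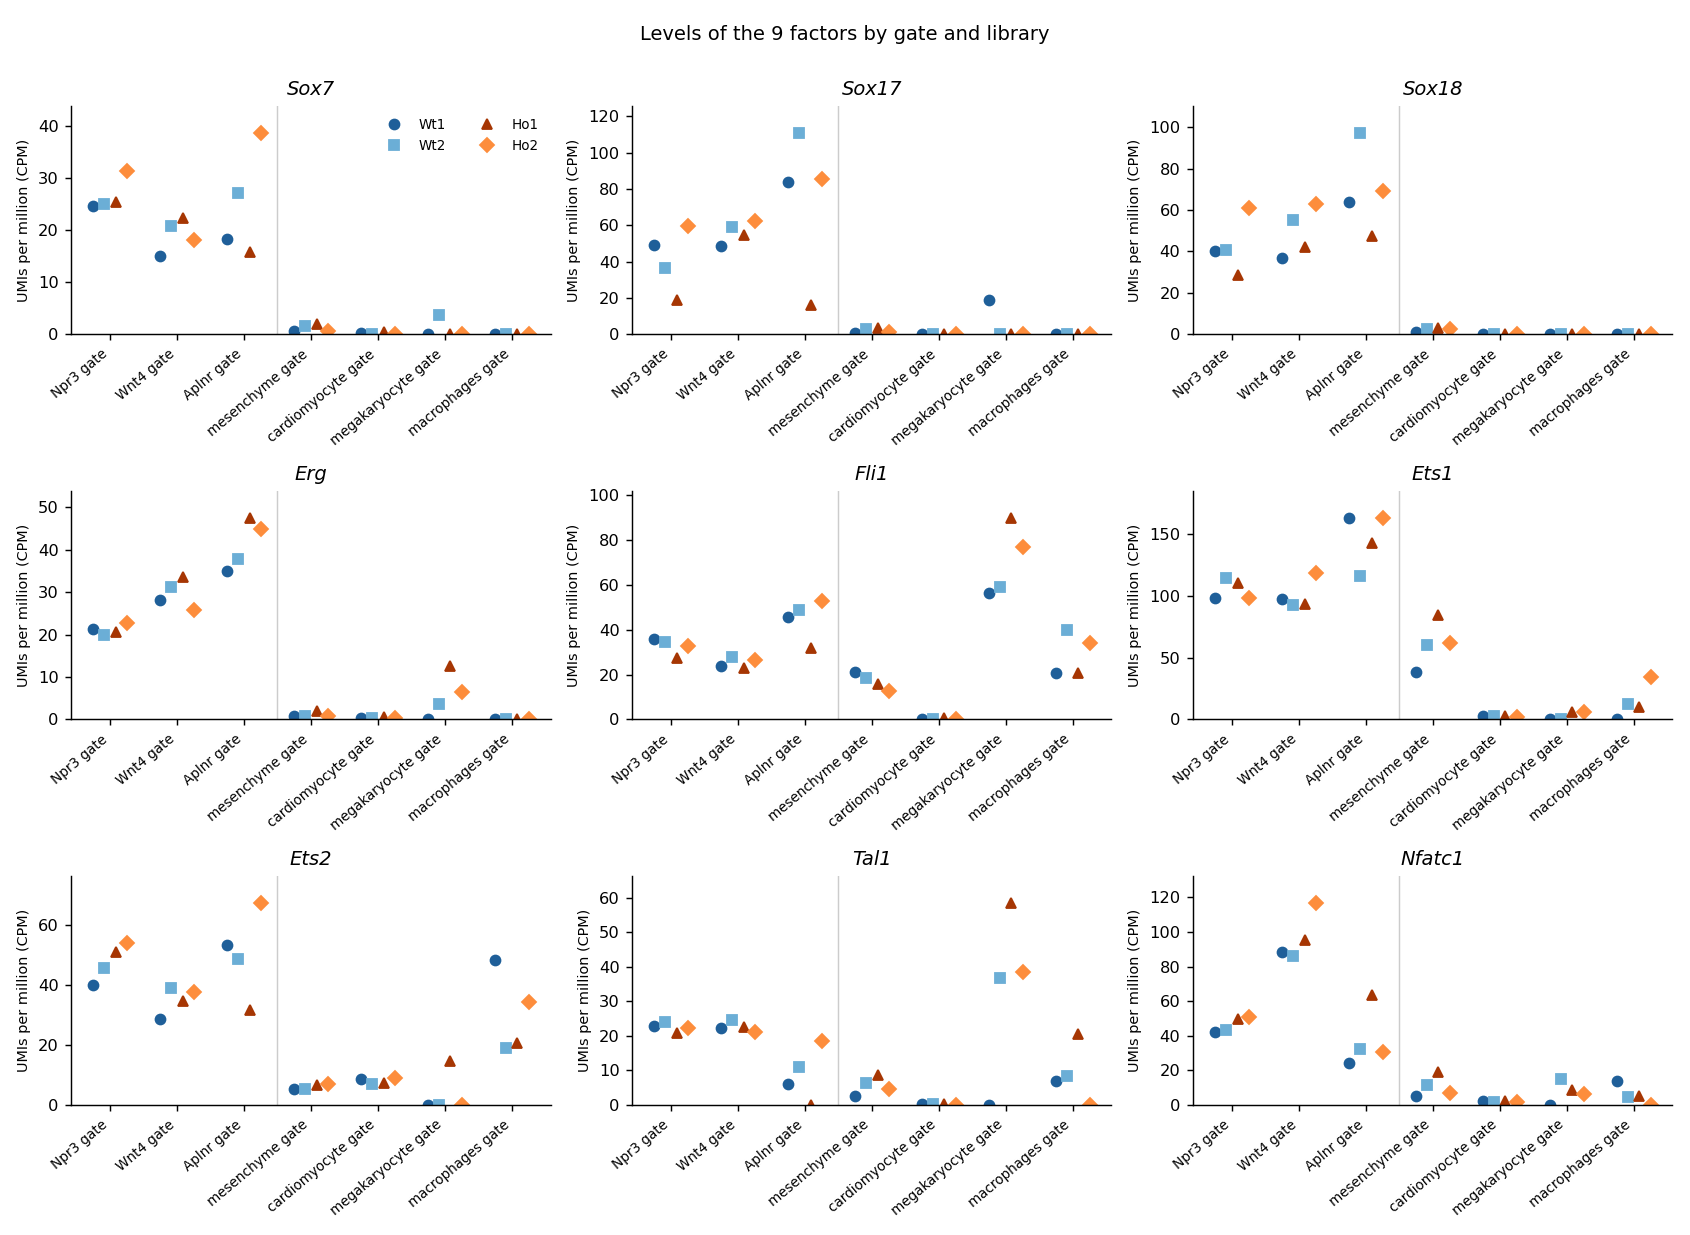
Levels of the 9 factors as UMIs per 1000000 (CPM, linear axes from 0, a scale for each gene) in 3 endothelial gates, left of the grey line, and in 4 other gates. Each symbol is 1 library (blue shades Wt, orange shades Ho). Nfatc1 is highest in the Wnt4 gate (86.4 to 117 CPM), Erg climbs from Npr3 to Aplnr cells, and Fli1 and Tal1 are also present in the megakaryocyte gate.

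Counted over the 9 genes, Wnt4 against Npr3 gave 3 called higher (Nfatc1, Sox17 and Erg) and 3 called lower (Ets2, Sox7 and Fli1), where 16.0% and 13.7% of 10159 genes were called higher and lower. Aplnr against Npr3 gave 5 higher and 1 lower (6.45% and 5.83% of all genes), and Aplnr against Wnt4 gave 4 higher and 2 lower (9.06% and 9.98%). These comparisons share gates and are not independent of one another. The median difference of the 9 genes was 0.02 for Wnt4 against Npr3, and 0.57 and 0.53 for Aplnr against Npr3 and Wnt4, beside medians of 0.00, -0.03 and -0.04 over all genes. When gates were set on cells thinned to 2000 UMIs, which leaves far fewer labelled cells, 1, 0 and 1 of the 9 were called, both calls being Nfatc1.

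**Figure D2:**
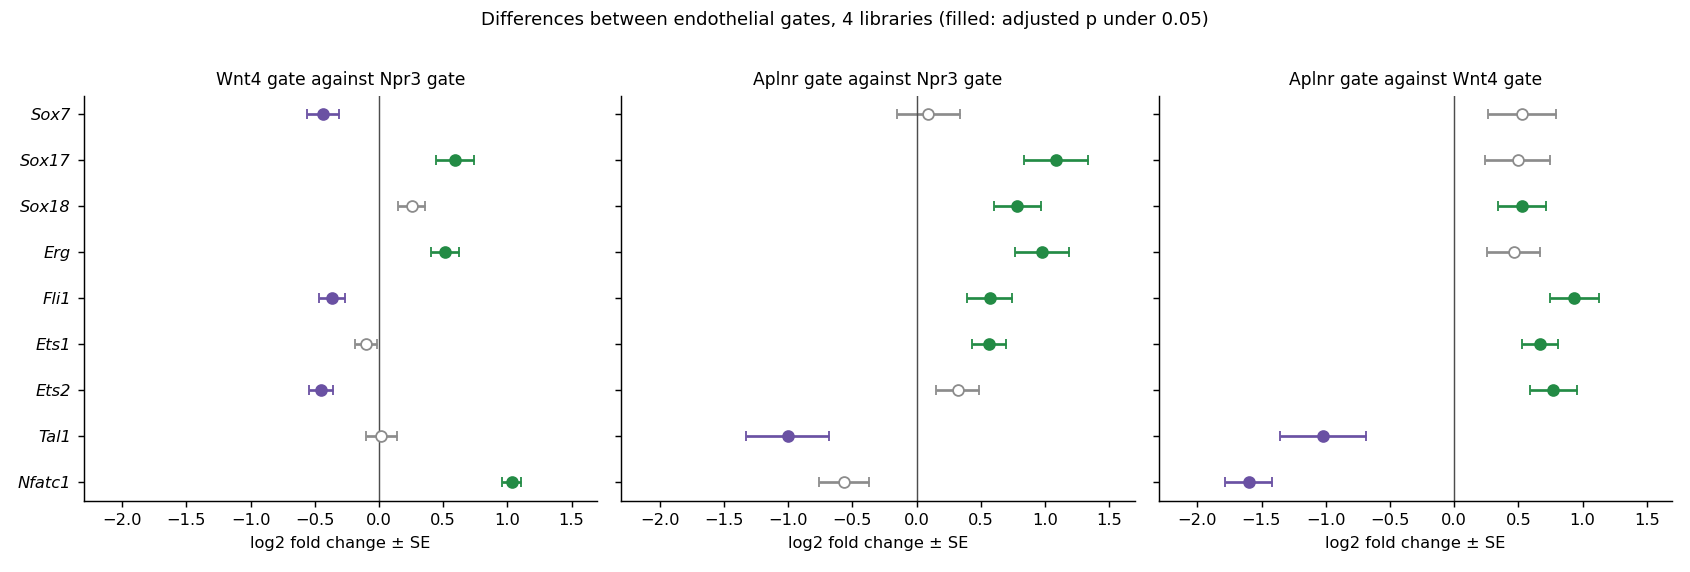
Differences between endothelial gates for each factor, as log2 fold change (horizontal axis) ± standard error over 4 libraries. Filled points have an edgeR adjusted p under 0.05, green higher and purple lower. Nfatc1 is 1.03 higher with Wnt4 than with Npr3, while Tal1 is 1.00 lower with Aplnr than with Npr3.

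Macrophages, 8, 18, 9 and 1 cells in the 4 libraries, divided the group. Macrophage markers summed to 5494 to 6754 CPM in them, and none of the 10 was at 0. Transcripts of the 6 cardiomyocyte markers were also there, at 11906, 6056, 318 and 136 CPM in Wt1, Wt2, Ho1 and Ho2, Myl7 reaching 7090 CPM in Wt1, and their part in the result was not tested. No UMI of Sox7, Sox17, Sox18 or Erg was found among their 845030 UMIs, which allows up to 3.55 CPM (3 counts over the gate). Against the pooled endothelial levels this makes the 4 genes at least 6.74-fold, 10.4-fold, 11.8-fold and 6.33-fold lower in macrophages. Ets1 (9 UMIs) was lower by 3.41 ± 0.33 and Nfatc1 (5 UMIs) by 3.29 ± 0.54 (log2, SE; edgeR adjusted p = 3.7e-06 and 0.00049), and Ets2 (21 UMIs) by 0.88 ± 0.27 (adjusted p = 0.029). Fli1 differed by -0.13 ± 0.48 (adjusted p = 0.87) and Tal1 (9 UMIs) by -1.13 ± 0.52 (adjusted p = 0.14). Tal1 was called in 1 of 13 alternative settings, with differences of -1.64 to -0.35. In all, 7 of 9 were called lower, where 15.5% of 14462 genes were, and the median over all genes was itself -0.46. The call for Sox7 was lost without Wt2, and that for Ets2 without Wt2, Ho1 or Ho2, with DESeq2 and with sums of at least 5 cells. With gates on thinned cells 5 of 9 were called, Ets2 and Nfatc1 (-1.95, adjusted p = 0.076) being lost.

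Homozygous and wild-type endothelium were then compared. None of the 9 genes was called (edgeR, 0.0% of 13890 genes called), 2 had an unadjusted p under 0.05 (5.60% of all genes), and DESeq2 called none of the 9. Those 2 were Sox7, at 0.25 ± 0.09 (log2, SE; unadjusted p = 0.033, adjusted p = 0.84), and Ets2, at 0.22 ± 0.08 (unadjusted p = 0.027, adjusted p = 0.84). Nfatc1 gave 0.15 ± 0.07, Tal1 0.05 ± 0.10, Ets1 0.03 ± 0.07, Sox18 0.01 ± 0.19, Sox17 -0.02 ± 0.27, Erg -0.07 ± 0.10 and Fli1 -0.16 ± 0.09. With a library left out, Erg ranged from -0.14 to -0.0010 and Fli1 from -0.23 to -0.085. The standard errors of Sox17 and Sox18 were the widest. The median over the 9 was 0.03, beside 0.00 for all genes.

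Sox17 and Sox18 changed sign with the homozygous library that was kept. Such a fit has 1 homozygous library, which is assumed to vary like the 2 wild types, so that its p-values do not measure the spread between homozygotes. It called 180 genes in endothelium without Ho1 and 644 without Ho2, where all 4 libraries gave 0, and 49 and 400 in the Npr3 gate. Without Ho1, Sox17 was 0.40 higher in homozygous endothelium (edgeR adjusted p = 0.039), and without Ho2 it was 0.58 lower (adjusted p = 0.00047). Sox18 gave 0.31 without Ho1, which was not called, and -0.35 without Ho2 (adjusted p = 0.029). In the Npr3 gate, Sox17 moved from 0.51 without Ho1 (adjusted p = 0.29) to -1.09 without Ho2 (adjusted p = 0.00077), and Sox18 from 0.60 (adjusted p = 0.044) to -0.44 (adjusted p = 0.066). Cardiomyocyte transcripts also set Ho1 apart, as given above. Leaving out endothelial cells that carried sarcomere UMIs lowered the cardiomyocyte markers of Ho1 to 516 CPM. Wt1, Wt2 and Ho2 then stood at 314, 445 and 315 CPM, so that Ho1 remained the highest. Sox17 of Ho1 was then 26.5 CPM in endothelium and 19.9 CPM in the Npr3 gate, the lowest of the 4 libraries in both. The part of cardiomyocyte transcripts in the Sox17 level of Ho1 was not tested. For Sox7, Ets2 and Nfatc1 neither sign nor call depended on the homozygous library kept, with 0.18 to 0.31, 0.18 to 0.26 and 0.14 to 0.16.

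**Figure D3:**
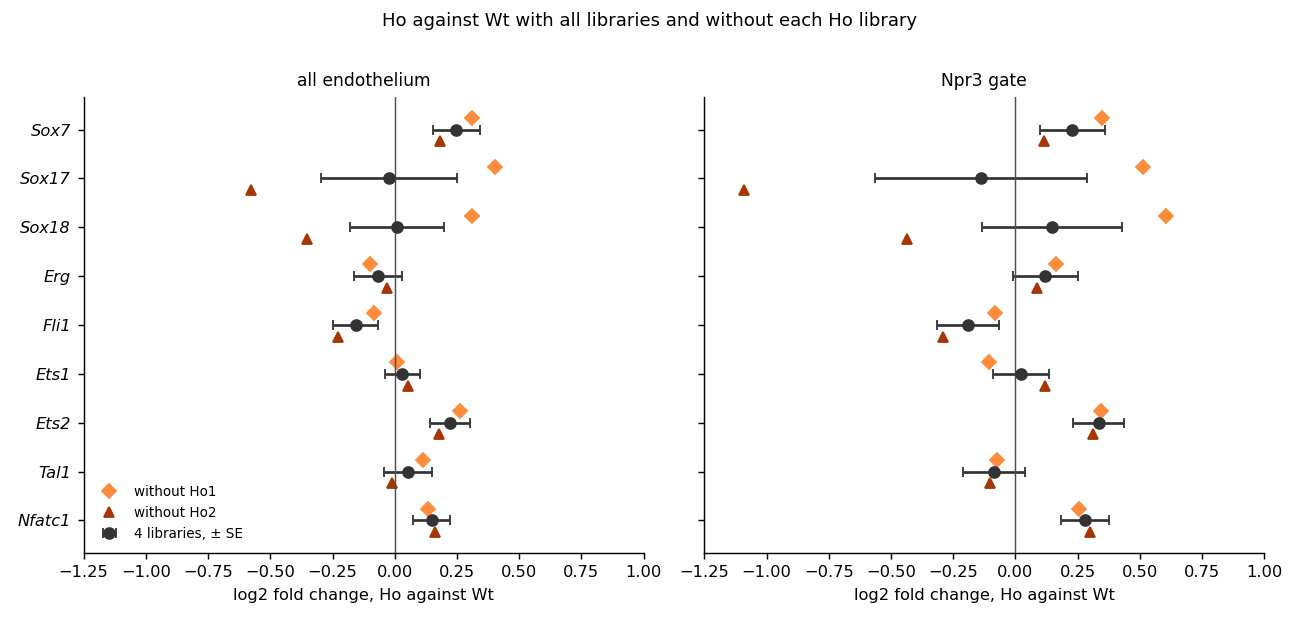
Homozygous against wild-type levels in all endothelium and in the Npr3 gate, as log2 fold change (horizontal axis). Black points are fits of all 4 libraries ± standard error, orange diamonds are fits without Ho1 and brown triangles without Ho2. Sox17 lies at 0.40 without Ho1 and at -0.58 without Ho2 in all endothelium. In the Npr3 gate Sox18 moves from 0.60 without Ho1 to -0.44 without Ho2, and Ets1 from -0.10 to 0.12.

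Within the gates none of the genes tested was called either. In the Npr3 gate 0 of 9 were called (edgeR, 0.0% of 11947 genes), 2 had an unadjusted p under 0.05 (6.48% of all genes) and DESeq2 called 0. These were Ets2, at 0.33 ± 0.10 (log2, SE; adjusted p = 0.74), and Nfatc1, at 0.28 ± 0.10 (adjusted p = 0.74), and the other 7 lay between -0.19 and 0.23. In the Wnt4 gate 0 of 9 were called (0.0401% of 9986 genes), 1 had an unadjusted p under 0.05 (5.11% of all genes) and DESeq2 called 0, the gene being Nfatc1 at 0.29 ± 0.13 (adjusted p = 0.90; 0.17 without Ho2 and 0.43 without Ho1), with the other 8 between -0.07 and 0.21. In the Aplnr gate 8 genes were tested, Tal1 having too few counts, and 0 were called (0.0804% of 4974 genes), 0 also at an unadjusted p under 0.05 (5.53% of all genes) and by DESeq2, with values of -0.38 to 0.70. Nfatc1 was higher in both homozygous libraries than in both wild-type ones in the Npr3 and the Wnt4 gate, though uncalled. An exact permutation test of 2 against 2 libraries gives such an order p = 0.333. The share of all genes with such an order was not counted, here or for other members.

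Outside the endothelium, 0 of 9 genes were called in the remaining cells (edgeR, 0.0% of 16312 genes), 1 had an unadjusted p under 0.05 (3.53% of all genes) and DESeq2 called 0. That gene was Fli1, at 13.4, 6.84, 4.22 and 4.30 CPM, a difference of -1.19 ± 0.35 (log2, SE; adjusted p = 0.80). Mesenchyme, where Fli1 was abundant, made up 32.8%, 18.5%, 12.4% and 17.3% of the cells of Wt1, Wt2, Ho1 and Ho2. The part of these shares in the Fli1 difference was not tested. Without Wt1 the difference for Fli1 in remaining cells was -0.62 and without Wt2 -1.60, and the other 8 genes lay between -0.44 and 0.35. Within the mesenchyme gate Fli1 gave -0.49 ± 0.21 (-0.31 without Wt1 and -0.66 without Ho1) and Ets1 0.57 ± 0.25 (0.33 without Wt1 or Ho1 and 0.86 without Wt2), the other 7 lay between 0.34 and 0.78, and 0 of 9 genes were called (0.0% of 13392 genes, 0 at an unadjusted p under 0.05, beside 2.62% of all genes, and 0 by DESeq2). The medians in this gate were 0.57 over 24 endothelial genes and 0.58 over 18 other endothelial transcription factors, beside 0.01 over all genes. Of these listed genes 0 were called. The 6 endothelial markers, all detected, summed to 89.7, 134, 179 and 126 CPM in the mesenchyme of Wt1, Wt2, Ho1 and Ho2, with Egfl7 the most abundant, and the part of endothelial transcripts in these values was not tested. In the cardiomyocyte gate Erg, Fli1, Ets1, Ets2 and Nfatc1 passed the filter on low counts, at -0.08 to 0.88, and 0 were called (0.0423% of 14200 genes, 0 at an unadjusted p under 0.05, beside 5.77% of all genes, and 0 by DESeq2).

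Whether the genotype difference itself changed from gate to gate was tested as an interaction. Wnt4 against Npr3 gave 0 of 9 called (edgeR, 0.266% of 10159 genes, 0 at an unadjusted p under 0.05, beside 3.49% of all genes, and 0 by DESeq2). Sox17 had the largest value, 0.41 ± 0.23 (log2, SE; adjusted p = 1.00), and the other 8 lay between -0.23 and 0.14. Without Ho2, when Ho1 alone stood for the homozygotes and was assumed to vary like the wild types, the value for Sox17 was 1.12 ± 0.24 and called (adjusted p = 0.039), and without Ho1 it was -0.31 ± 0.24 (adjusted p = 1). Without Wt1 and without Wt2 it was 0.12 and 0.80, not called. Aplnr against Npr3 gave 0 of 9 called (0.128% of 10159 genes, 1 at an unadjusted p under 0.05, beside 6.42% of all genes, and 0 by DESeq2). That gene was Sox18, at -0.68 ± 0.33 (adjusted p = 0.78), and the other 8 lay between -0.44 and 1.12. Sox18 gave -0.95 without Wt1 and -0.38 without Wt2, not called. Without Ho2, when the homozygotes rested on the 4 Aplnr cells of Ho1, it gave -0.53 ± 0.88 and Sox17 -1.70 ± 1.39, not called either.

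Genes of the same families and pathways were counted beside the 9. For Wnt4 against Npr3, where 16.0% of all genes were called higher and 13.7% lower, 3 of 14 tested other Ets genes were called higher and 1 lower, led by Etv1 (0.78 ± 0.18, log2, SE) and Erf (0.64 ± 0.14), with Etv2, a factor of early blood and endothelial progenitors, at -0.73 ± 0.11. Of 7 other Sox genes 4 were higher and 1 lower, led by Sox6 (1.58 ± 0.15) and Sox9 (1.58 ± 0.11), a factor of cushion mesenchyme, with Sox11 at -0.33 ± 0.07. Of 9 genes of calcineurin and NFAT 5 were higher and 0 lower, with Nfatc4 at 1.89 ± 0.29 and the calcineurin subunit Ppp3cc at 1.38 ± 0.23, so that Nfatc1 was not the only gene of its pathway that was higher there. The median of that list was 0.27, beside 0.00 over all genes.

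Among 8 Tal1 partners and haematopoietic factors tested in the same comparison, Tcf12 was higher (0.54 ± 0.08, log2, SE) and Lyl1 (-0.93 ± 0.10) and Gata2 (-0.39 ± 0.11) lower, while Tal1 itself did not pass. Lyl1 is a close relative of Tal1. Of 19 other endothelial transcription factors 8 were higher, led by the Notch target Heyl (2.29 ± 0.31) and the flow-responsive Klf4 (2.13 ± 0.11), and 5 were lower, led by the venous factor Nr2f2 (-1.71 ± 0.15) and Foxc2 (-1.04 ± 0.16). Of 28 endothelial genes 6 were higher, led by the phosphatase Ptprb (1.81 ± 0.07) and Cd34 (0.90 ± 0.08), and 15 lower, led by Cldn5 (-2.54 ± 0.25) and the sialomucin Emcn (-1.81 ± 0.10). The median differences were -0.04 for other Ets genes, 0.67 for other Sox genes, -0.06 for Tal1 partners, 0.23 for endothelial transcription factors and -0.33 for endothelial genes.

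For Aplnr against Npr3, where 6.45% of all genes were called higher and 5.83% lower, the counts turned for several lists. Of the calcineurin and NFAT genes 0 of 9 were higher and 2 lower, Nfat5 (-0.89 ± 0.30, log2, SE) and Ppp3ca (-0.44 ± 0.14). Of 7 other Sox genes 0 were higher and 2 lower, Sox9 (3 UMIs in the Aplnr gate) and Sox5 (2 UMIs). Of 8 Tal1 partners 2 were higher and 0 lower, Lmo2 (1.67 ± 0.18), a bridging subunit of Tal1 complexes, and the E-protein Tcf4 (1.12 ± 0.12), where Tal1 was lower. Of 14 other Ets genes Elk3 was higher (0.53 ± 0.16) and Etv2 lower (-1.56 ± 0.29). Other endothelial transcription factors gave 4 higher and 4 lower of 19, led by Tcf15 (4.20 ± 0.21) and Mef2c (1.58 ± 0.15) and by Gata5 (-2.10 ± 0.32) and Tbx20 (-1.11 ± 0.24). Endothelial genes gave 11 higher and 1 lower of 28, with Cldn5 at 3.34 ± 0.16, Mmrn1 at 1.99 ± 0.37 and the TGF-beta co-receptor Eng at -0.65 ± 0.11. The median differences were -0.44 for calcineurin and NFAT, 0.12 for other Sox genes, -0.22 for Tal1 partners, 0.19 for other Ets genes, -0.08 for endothelial transcription factors and 0.33 for endothelial genes, beside -0.03 over all genes.

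For Aplnr against Wnt4, where 9.06% of all genes were called higher and 9.98% lower, Elk3 (0.54 ± 0.17, log2, SE) was the 1 called gene of 14 other Ets genes. Of 7 other Sox genes 1 was higher, Sox11 (0.45 ± 0.13), and 4 lower, led by Sox9 and Sox5 with their 3 and 2 UMIs. Of 9 calcineurin and NFAT genes 0 were higher and 4 lower, led by Ppp3cc (1 UMI) and the calcineurin regulator Rcan1 (-1.40 ± 0.20). Of 8 Tal1 partners 3 were higher, led by Lmo2 (1.81 ± 0.19) and Tcf4 (1.11 ± 0.13), and 2 lower, Tcf12 (-0.995 ± 0.187) and Cbfa2t3 (-0.78 ± 0.24). Of 19 other endothelial transcription factors 5 were higher, led by Tcf15 (4.46 ± 0.24) and Nr2f2 (2.23 ± 0.27), and 7 lower, led by the cardiac T-box factor Tbx20 (-2.66 ± 0.21) and Gata5 (-2.62 ± 0.31). Of 28 endothelial genes 14 were higher, led by Cldn5 (5.88 ± 0.23) and Mmrn1 (3.24 ± 0.45), and 5 lower, led by Ptprb (-1.51 ± 0.16) and the nitric oxide synthase Nos3 (-0.96 ± 0.23). The median differences were -0.13 for other Ets genes, -0.69 for other Sox genes, -0.71 for calcineurin and NFAT, 0.05 for Tal1 partners, -0.64 for endothelial transcription factors and 0.60 for endothelial genes, beside -0.04 over all genes.

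In endothelium against remaining cells, where 27.0% of all genes were called higher and 28.8% lower, 8 of 16 other Ets genes were higher, led by Fev (3.88 ± 0.27, log2, SE) and Etv2 (3.27 ± 0.22), and 3 lower, led by Etv1 (-1.03 ± 0.13) and Etv5 (-0.85 ± 0.14). Of 9 other Sox genes 2 were higher, Sox13 (1.00 ± 0.19) and Sox4 (0.64 ± 0.13), and 4 lower, led by Sox2 (-4.05 ± 0.32) and Sox12 (-0.69 ± 0.12). The calcineurin and NFAT list was split, 4 higher and 4 lower of 11, led by Ppp3ca (1.22 ± 0.09) and Rcan3 (1.20 ± 0.14) and by Rcan2 (-3.43 ± 0.18) and Nfatc2 (-1.71 ± 0.24). Of 12 Tal1 partners 6 were higher, led by Lyl1 (4.61 ± 0.19) and Cbfa2t3 (3.38 ± 0.14), and 2 lower, Runx1 (-1.96 ± 0.19) and Klf1 (-0.64 ± 0.23). Of 19 other endothelial transcription factors 15 were higher, led by Bcl6b (5.22 ± 0.21) and Klf2 (3.86 ± 0.22), and 2 lower, Prox1 (-1.49 ± 0.15) and Mef2c (-1.26 ± 0.18). All 29 endothelial genes tested were higher, led by Emcn (5.89 ± 0.15) and Esam (5.27 ± 0.14).

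In macrophages, where 8.42% of all genes were called higher and 15.5% lower than in endothelium, 1 of 29 endothelial genes was called higher and 26 lower, and 1 of 19 other endothelial transcription factors higher and 11 lower. Of 16 other Ets genes 3 were higher and 3 lower, of 9 other Sox genes 0 and 4, of 11 calcineurin and NFAT genes 1 and 3, and of 12 Tal1 partners 1 and 6. With genes of 0 UMIs in macrophages set at the limit of 3 counts over the gate, or left out where endothelium was also below it, the median differences (log2) were -4.22 for endothelial genes, -2.73 for endothelial transcription factors, -0.34 for other Ets genes, -1.99 for other Sox genes, -0.57 for calcineurin and NFAT and -0.85 for Tal1 partners, beside a fitted median of -0.46 over all genes. Spi1, the Ets factor of myeloid cells, was 7.67 ± 0.43 higher (log2, SE), Runx1 5.92 ± 0.35, Mef2c 1.88 ± 0.27, Etv5 1.62 ± 0.44 and Lyve1 1.26 ± 0.41. Among the genes called lower were Sox4 (-3.90 ± 0.33), Sox11 (-3.31 ± 0.54), Rcan1 (-2.38 ± 0.43), Tcf3 (-2.28 ± 0.42), Nfat5 (-1.98 ± 0.44) and Elk3 (-1.49 ± 0.42), each from at most 18 UMIs in macrophages. In homozygous against wild-type endothelium, the Npr3 gate and the Wnt4 gate, 0 genes of any of these 6 lists were called.

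The share of cells with a UMI was read after thinning each cell to 2000 UMIs, leaving out shallower cells, so that 1294, 1878, 2093 and 1176 endothelial cells of Wt1, Wt2, Ho1 and Ho2 were used. Sox17 was then found in 5.87%, 6.55%, 4.59% and 9.69% of them, and in 27.8%, 29.8%, 26.2% and 39.6% of unthinned cells. The thinned shares kept the order of the CPM within the homozygotes, Ho1 lowest and Ho2 highest. In the cardiomyocyte gate, which should lack Sox17, none was found in any thinned library, and unthinned shares were 0.164% to 0.261% at median depths of 14995.5 to 20105 UMIs, against 13135 to 16233 in the endothelium.

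Sox18 was found in 7.57%, 9.16%, 6.31% and 9.52% of thinned endothelial cells, against 36.5% to 48.9% of unthinned ones and at most 0.191% of thinned cardiomyocytes. Nfatc1 was found in 15.1%, 17.6%, 15.8% and 16.0% of thinned Wnt4 cells and in 8.91%, 6.16%, 8.19% and 9.78% of thinned Npr3 cells, so the gates did not overlap (60.4% to 73.3% and 41.1% to 51.7% unthinned). Its thinned cardiomyocyte share was 0.193% to 0.649%. Ets2 had the highest share in thinned cardiomyocytes, 1.38% to 1.83%, against 7.42% to 8.93% of endothelial cells (37.6% to 50.3% unthinned, and 11.7% to 15.9% in cardiomyocytes).

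**Figure D4:**
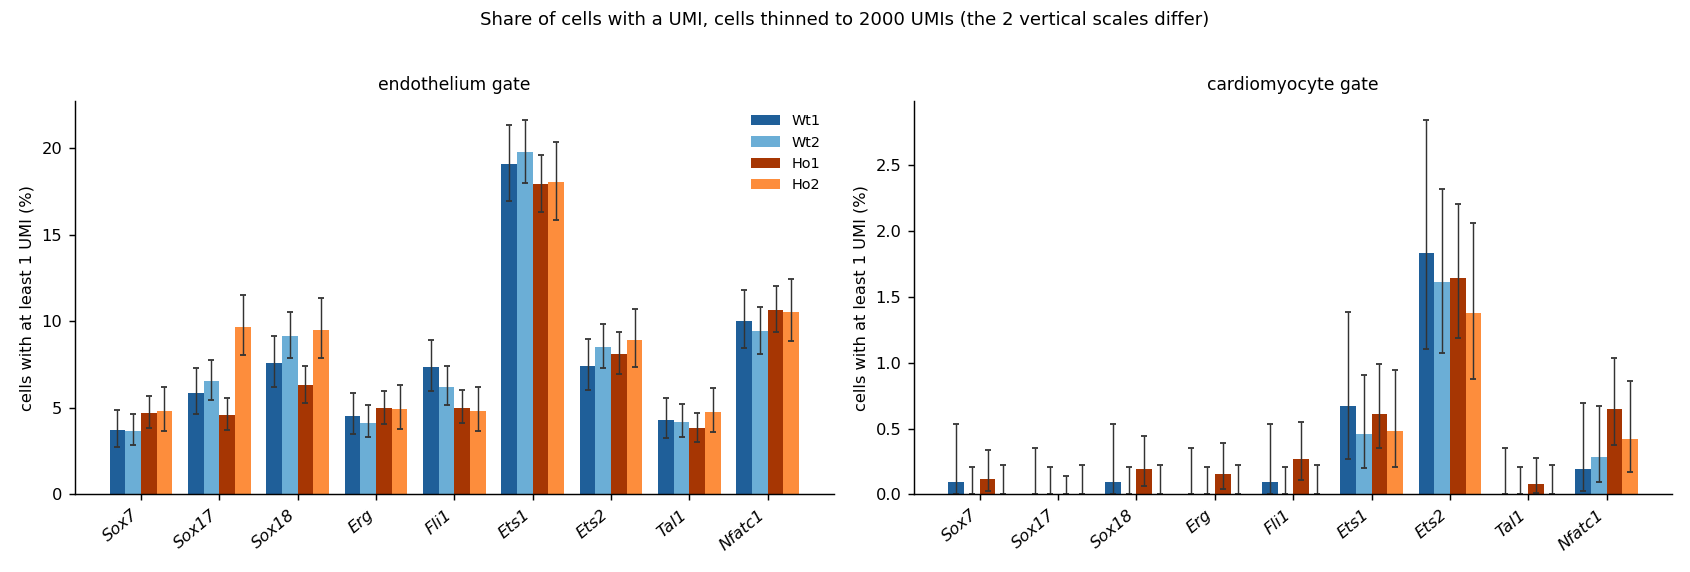
Share of cells with at least 1 UMI of each factor (percent, vertical axes with different scales) after thinning every cell to 2000 UMIs, in the endothelium gate and the cardiomyocyte gate. Bars are libraries (blue shades Wt, orange shades Ho) and whiskers are exact 95% binomial intervals for counting error only, and Sox17 ranges from 4.59% in Ho1 to 9.69% in Ho2 in the endothelium and is at 0 in the cardiomyocyte gate.

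All 3 SoxF genes together were seen in 3.81%, 5.42%, 4.94% and 9.96% of the unthinned endothelial cells of Wt1, Wt2, Ho1 and Ho2, and none of them in 38.8%, 31.8%, 37.0% and 24.4%. These shares were not matched for depth, which differed between the libraries, so that no difference between genotypes is read from them.

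The shares of the 3 endothelial gates overlapped between the genotypes in the gates as set, but not in every alternative setting. Npr3 cells made up 31.2%, 33.5%, 31.4% and 30.3% of the endothelium of Wt1, Wt2, Ho1 and Ho2, a difference of -1.47 percentage points (two-sided exact permutation p = 0.667). Wnt4 cells made up 12.1%, 9.99%, 12.0% and 11.1%, a difference of 0.478 points (exact p = 1). Aplnr cells made up 3.36%, 1.05%, 0.190% and 1.77%, a difference of -1.22 points (exact p = 0.667). Wt2, at 1.05%, lay near the homozygous Aplnr mean of 0.981%, but that mean joins 0.190% in Ho1 and 1.77% in Ho2. The high Wt1 and the low Ho1 thus both entered the Aplnr difference. For Npr3 the homozygous mean was 30.9%, near the 31.2% of Wt1, so that Wt2 carried most of that difference. The smallest p this design allows is 0.333, and the gates are set by single UMIs, so that depth can enter these shares. With gates set on cells thinned to 2000 UMIs, Wnt4 cells made up 9.89%, 10.2%, 13.8% and 17.7% of the 283, 402, 400 and 215 endothelial cells left, a difference of 5.67 points without overlap (exact p = 0.333). Aplnr cells made up 0.707%, 0.746%, 0.250% and 0.465% of them, also without overlap (exact p = 0.333), from 1 to 3 cells a library. The Npr3 shares did not overlap with an endothelial gate of 4 UMIs (-1.89 points), without endothelial cells that carried sarcomere UMIs (-1.89 points) and with doublets kept (-1.64 points), each at exact p = 0.333. The shares of all cells in the cardiomyocyte gate, 12.2%, 25.6%, 38.5% and 27.8%, and in the mesenchyme gate, given above, did not overlap between the genotypes (exact p = 0.333 for each).

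Finally, the pattern of each factor over 41 sums of gate and library was set beside that of 10441 genes, as the Pearson correlation of log2(CPM + 1), which is a description, since sums of 1 library share its depth and cells. Sox7 was most like Sox18 (0.986), the gate gene Cdh5 (0.984) and Adgrf5 (0.983), Sox18 was most like She (0.986) and Sox7, and Sox17 was most like Sox18 (0.979). Erg was most like Ccm2l (0.979) and the angiopoietin-pathway receptor Tie1 (0.972). Fli1 was most like Tgfb1 (0.938) and Cd34 (0.921), Ets1 like Cnrip1 (0.944), and Ets2 like Klhl36 (0.941) and the Notch ligand Dll4 (0.940). Tal1 was most like Zc3hav1 (0.953), Lyl1 (0.934) and Gata2 (0.922). Nfatc1 was most like Eng (0.966) and the gate gene Pecam1 (0.961).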

How the data were processed

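Single-cell 3′ libraries of 2 wild-type and 2 homozygous heart samples were compared. The deposited values are UMI counts per gene and cell, which the authors made with Cell Ranger 6.1.1 against mm10, with Seurat 4.1.0 also named in the submitters' processing notes. Barcodes numbered 10320, 8212, 7999 and 7058 in Wt1, Wt2, Ho1 and Ho2, with 109893733, 117034633, 127018819 and 107377100 UMIs. As in the study's methods, cells were kept with at most 20% mitochondrial UMIs, 500 to 50000 UMIs and 500 to 6000 genes, which left 9654, 7618, 7420 and 6460 cells. Doublets (746, 464, 440 and 334) were removed with Scrublet in scanpy 1.11.5, at a rate of 0.8% per 1000 cells, in place of DoubletFinder. Gates were set on raw UMIs in Python 3.11.15, and counts were summed over the cells of a gate and library, since cells are not replicates.

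Sums were tested in R 4.3.3 with edgeR 4.0.16 (filterByExpr, TMM, quasi-likelihood F test), with Benjamini-Hochberg adjustment over all genes and a threshold of 0.05. Gate contrasts had the library as a block, and each genotype comparison used the sums of its own gate. DESeq2 1.42.0 was an alternative, as were RLE scaling, other count filters, other gates, a 10% mitochondrial limit, doublets kept, a replicate block and leaving out each library. The script was tested on simulated data. Levels are UMIs per 1000000 UMIs of the sum, counted at 3′ ends and so not divided by transcript length. Exact permutation tests of shares used scipy 1.17.1. Intervals and limits cover counting error only.

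In each comparison all 9 genes are given, singly or as the range of the others, and from each of 6 lists the 2 called genes with the largest change in each direction, except genes with under 5 UMIs in macrophages, which are not named, or in the Aplnr gate, for which UMIs replace the fold change. That limit was set after the counts were seen. For each gene the 3 most alike by Pearson correlation were found, and some of these are named. The 9 genes and the lists were chosen with earlier results of these data known. Promoter windows are from RefSeq (GRCm38.p6).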

Additional observations from a re-analysis of the deposited data

How the results depend on the processing

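In the homozygous against wild-type comparisons 0 of the 9 genes were called with all 4 libraries, and leaving out 1 library gave 0 to 2 in all endothelium, 0 to 1 in the Npr3 gate and 0 to 1 for the Wnt4 against Npr3 interaction (Sox17, without Ho2). With 1 library left in a genotype, that library is assumed to vary like the other genotype. Over all genes the count in endothelium went from 0 to as many as 644 without Ho2, and in the Npr3 gate from 0 to 400. For Aplnr against Npr3 the called members numbered 6, and 3 to 5 with a library left out (3 without Wt1 or Wt2), and for Aplnr against Wnt4 6, and 3 to 6. With gates set on cells thinned to 2000 UMIs they were 1 (Wnt4 against Npr3), 0 (Aplnr against Npr3) and 1 (Aplnr against Wnt4). Genes called over all those tested ranged over the settings from 314 to 3566, 129 to 1824 and 207 to 2487 in these contrasts, beside 3019, 1247 and 1934. DESeq2 called 5, 4, 4, 9 and 6 members in the contrasts of Wnt4 with Npr3, Aplnr with Npr3, Aplnr with Wnt4, endothelium with remaining cells and macrophages with endothelium, where edgeR called 6, 6, 6, 9 and 7. The difference in the Npr3 share, -1.47 points, became 2.60 when each cell was placed by the largest of its 3 gate genes, and that in the Wnt4 share, 0.478, ranged from -0.591 to 1.55 with a library left out and was 5.67, without overlap, with gates on thinned cells. For the shares, leaving out a library and other endothelial gates and cell limits were added after the data were seen.

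Members whose genotype difference changed sign were all uncalled with 4 libraries. With a library left out (log2), in endothelium Sox17 ranged from -0.58 to 0.40, Sox18 from -0.35 to 0.31, Ets1 from -0.00034 to 0.059 and Tal1 from -0.013 to 0.11. In the Npr3 gate Sox17 ranged from -1.09 to 0.51, Sox18 from -0.44 to 0.60 and Ets1 from -0.10 to 0.13. In the Wnt4 gate Sox7 ranged from -0.00099 to 0.45, Sox18 from -0.11 to 0.48, Erg from -0.19 to 0.21, Fli1 from -0.14 to 0.040 and Ets2 from -0.058 to 0.33. Between gates, Tal1 ranged from -0.021 to 0.029 (Wnt4 against Npr3), Sox7 from -0.14 to 0.27 (Aplnr against Npr3) and Fli1 from -0.77 to 0.0022 (macrophages against endothelium).

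Other settings turned further small differences. An endothelial gate of 4 UMIs gave -0.0077 for Sox18 in endothelium, and -0.010 for Erg and -0.045 for Ets2 in the Wnt4 gate. Doublets kept gave -0.017 for Sox18 in endothelium, -0.012 for Ets1 in the Npr3 gate and -0.0041 for Tal1 between Wnt4 and Npr3. Placing cells by the largest gate gene gave -0.050 for Erg and 0.038 for Tal1 in the Npr3 gate, -0.0034 for Sox18 in the Wnt4 gate, and 0.034 for Ets1 and -0.031 for Tal1 between Wnt4 and Npr3, where Tal1 also gave -0.019 with no filter and -0.016 without sarcomere cells. Gates on thinned cells gave -0.043 for Ets1 in endothelium, -0.028 for Erg in the Npr3 gate, 0.34, -0.47 and 0.47 for Fli1, Ets2 and Tal1 in the Wnt4 gate, and -0.077 for Tal1 between Wnt4 and Npr3. They also gave -0.43, -0.028 and -0.84 for Fli1, Ets1 and Ets2 between Aplnr and Npr3, -0.017, -0.15, -0.11 and -0.68 for Sox17, Sox18, Fli1 and Ets2 between Aplnr and Wnt4, and 0.32 for Fli1 between macrophages and endothelium. The causes were not tested.

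Replicate numbers did not pair the libraries (correlation of deviations -0.0735 in endothelium, -0.453 in remaining cells and -0.404 in mesenchyme). A replicate block called 0 members, and moved the genes called in cardiomyocytes from 6 to 113 and in endothelium from 0 to 0. It gave -0.016 for Sox18 in endothelium. The crossed block, added after the data were seen, gave -0.026 for Sox18, called 0 members and called 27 genes in endothelium. Sums of at least 5 cells, also added later, are included in the ranges above. A minimum of 10 counts in every sum left no member to test in the Aplnr and gate comparisons, and gates on thinned cells left none in the Aplnr genotype comparison. The 89 Aplnr cells and 36 macrophages limit what those gates can show.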
